A study of Mus musculus with 3 samples.

Results

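Cluster 5 of the E14.5 mouse tail was a small group of haemoglobin-rich cells, 71 of the 2052 cells of the tail library (3.46%, 95% Clopper-Pearson interval 2.71 to 4.345). Its members were the tail cells that carried the deposited cluster code 6, which the authors assigned by clustering the expression of these cells. It was 1 of a pair of tail clusters that the study annotated as blood. The other was cluster 11 with 128 cells under code 12, and 1853 tail cells belonged to neither. The tail library came from E14.5 embryos of ScxGFP mice, which carry a reporter for the tendon gene *Scx*, on the C57BL6 strain, with embryos of either sex. Trypsin and Collagenase released the cells, Annexin V-binding cells were depleted, and 1 library was made with 10x 3′ v3 chemistry. Its unit is the unique molecular identifier (UMI), a tag that lets copies of the same transcript be counted once. The number of embryos behind it is not given in the sources used here, and neither is any separation of tail tissue from the blood it held. The series also holds 1 library of a D10 culture grown from mouse embryonic stem cells, used once below, and 1 library of D6 PM, not used here.

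The tail library held 31343741 UMIs, with a median of 13512 per cell (range 891 to 48291) and at most 7.46% of UMIs from the mitochondrial genome in any cell. Levels are given as CPM, the UMIs of a gene in all cells of a group, scaled to a group total of 1000000 UMIs. These 3′ counts are 1 per captured transcript and are not divided by transcript length. Intervals are exact 95% intervals for counting error only. With 1 library and cells that are not replicates, no test between groups was possible, and because the clusters were built from these same genes, each difference is a description.

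Red cells of the mouse embryo are made in successive waves. The first, called primitive, arises in the yolk sac, enters the circulation while still nucleated and carries embryonic haemoglobin, built from the beta-type chain of *Hbb-y* or *Hbb-bh1* and the alpha-type chain of *Hba-x* together with the adult alpha chains. Definitive red cells from the fetal liver follow, lose their nucleus before they enter the blood, and carry the adult beta chains of *Hbb-bs* and *Hbb-bt* with the alpha chains of *Hba-a1* and *Hba-a2*. As primitive cells mature, they are known to pass from *Hbb-bh1* to *Hbb-y* and from *Hba-x* towards the adult alpha genes.

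For 2 embryonic and 2 adult haemoglobin genes, a beta-type and an alpha-type gene of each, the 150 bases before the start are shown, because the comparison turns on the balance between these kinds. The windows are from RefSeq on GRCm38.p6, 5′ to 3′ on the strand of the gene, at chr7:103853208-103853357 (minus strand) for *Hbb-y*, chr11:32276450-32276599 (plus strand) for *Hba-x*, chr7:103827929-103828078 (minus strand) for *Hbb-bs* and chr11:32283522-32283671 (plus strand) for *Hba-a1*. Capitals mark matches to the GATA motif (letters GATAA), the CACCC box (CACCC), the CCAAT box (CCAAT) and the TATA box (TATAA), which were searched on both strands and do not overlap here.
Hbb-y: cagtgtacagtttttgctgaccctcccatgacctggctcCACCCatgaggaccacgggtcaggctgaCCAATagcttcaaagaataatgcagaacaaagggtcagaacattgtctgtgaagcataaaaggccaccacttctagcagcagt
Hba-x: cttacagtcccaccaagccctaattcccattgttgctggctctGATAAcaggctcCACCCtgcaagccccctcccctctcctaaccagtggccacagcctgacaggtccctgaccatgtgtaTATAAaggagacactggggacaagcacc
Hbb-bs: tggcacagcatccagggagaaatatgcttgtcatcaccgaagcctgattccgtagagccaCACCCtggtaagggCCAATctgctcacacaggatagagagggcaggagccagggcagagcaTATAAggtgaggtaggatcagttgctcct
Hba-a1: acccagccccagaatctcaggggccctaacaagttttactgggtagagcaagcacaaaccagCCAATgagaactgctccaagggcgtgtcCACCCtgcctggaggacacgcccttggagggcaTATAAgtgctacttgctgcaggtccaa

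Each of the 4 windows held the CACCC box once, at 111 to 107 bases before the start in *Hbb-y*, 95 to 91 in *Hba-x*, 90 to 86 in *Hbb-bs* and 60 to 56 in *Hba-a1*. Of 32851 promoter windows of this length, 37.4% held the CACCC box, 24.5% the CCAAT box, 14.2% the TATA box and 13.3% the GATA motif, by the letters given above. Of these 4 windows, those of *Hbb-y*, *Hbb-bs* and *Hba-a1* held the CCAAT box, all but that of *Hbb-y* held the TATA box, and that of *Hba-x* alone held the GATA motif. A match is only a run of letters and was not tied to any measurement.

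Haemoglobin transcripts made up 69.2% of the UMIs of cluster 5 (69.1 to 69.3), 86.1% of those of cluster 11 (86.08 to 86.2) and 0.459% of those of the other tail cells. The markers given for the cluster were high in it, with *Hbb-bt* at 27690 CPM and *Hba-a1* at 66295 CPM, against 705 and 584 CPM in the other tail cells. *Hbb-bt* was 39.3-fold higher than in the other tail cells (38.55 to 40.0) but at 0.129 of its level in cluster 11 (0.128 to 0.131). By these markers the cluster was red-cell-like, within the blood annotation it carries, although neither was its leading transcript.

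The leading transcript of cluster 5 was embryonic. *Hbb-y* stood at 474602 CPM, ahead of the adult alpha gene *Hba-a1* at 66295 CPM, the embryonic alpha-type gene *Hba-x* at 62582 CPM and the adult beta gene *Hbb-bs* at 46037 CPM. In cluster 11 the adult genes came first, with *Hbb-bs* at 481850 CPM, *Hbb-bt* at 214392 CPM, *Hba-a1* at 130344 CPM, and *Hbb-y* and *Hba-x* at 161 and 29.2 CPM. *Hbb-y* was 2947-fold higher in cluster 5 than in cluster 11 (2537 to 3444) and *Hba-x* 2144-fold higher (1510 to 3156). Embryonic genes (*Hbb-y*, *Hba-x*, *Hbb-bh1*, *Hbb-bh2* and the pseudogene *Hbb-bh0*) gave 77.8% of the haemoglobin UMIs of cluster 5 (77.7 to 77.9) and 0.0512% of those of cluster 11 (0.0466 to 0.0560). In 64 of the 71 cells of cluster 5 embryonic UMIs outnumbered adult ones, and in 0 of the 128 cells of cluster 11.

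**Figure D1:**
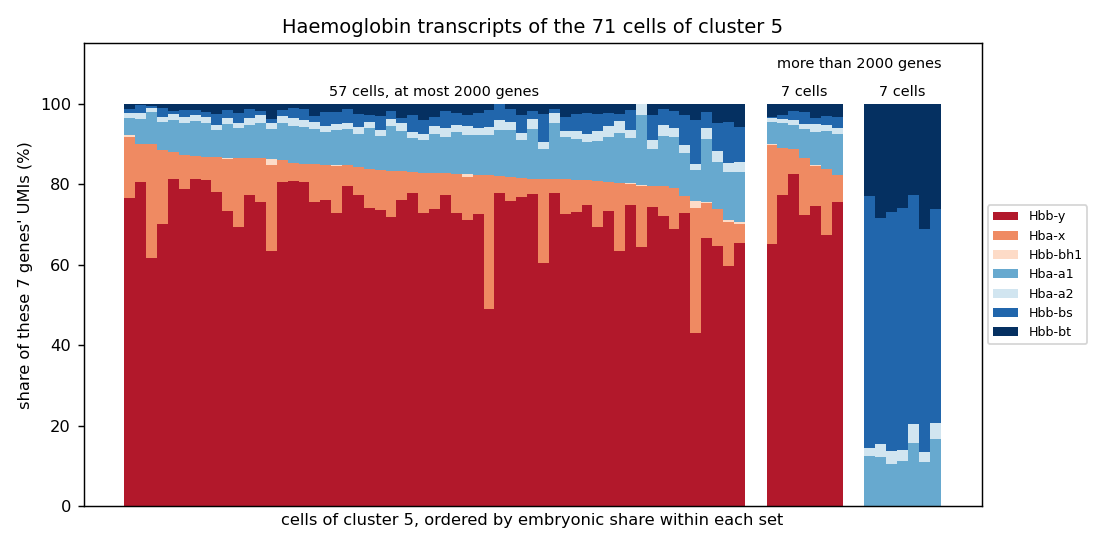
Share of the UMIs of 7 haemoglobin genes (y axis, percent) in each of the 71 cells of cluster 5 (1 bar per cell). The 57 cells with at most 2000 detected genes and 7 of the 14 cells with more show mainly *Hbb-y* in red, and the other 7 show mainly *Hbb-bs* and *Hbb-bt* in dark blue.

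The 71 cells were not alike in the number of genes they held. Detected genes ran from 225 to 1115 in 57 cells, and after a gap from 2569 to 6487 in the other 14, so that 2000 genes was taken as a dividing line after the values had been seen. No cell of cluster 11 lay above that line, where the highest had 1573 genes and the median was 328.5. The 57 cells had a median of 11856 UMIs (2279 to 30383) with 84.6% haemoglobin. The 14 cells had a median of 23833 UMIs (12244 to 33656) with 38.3% haemoglobin. They held 66.7% of all UMIs of cluster 5 outside haemoglobin and 98.6% of its UMIs of the 9 mesenchyme genes fixed as markers.

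**Figure D2:**
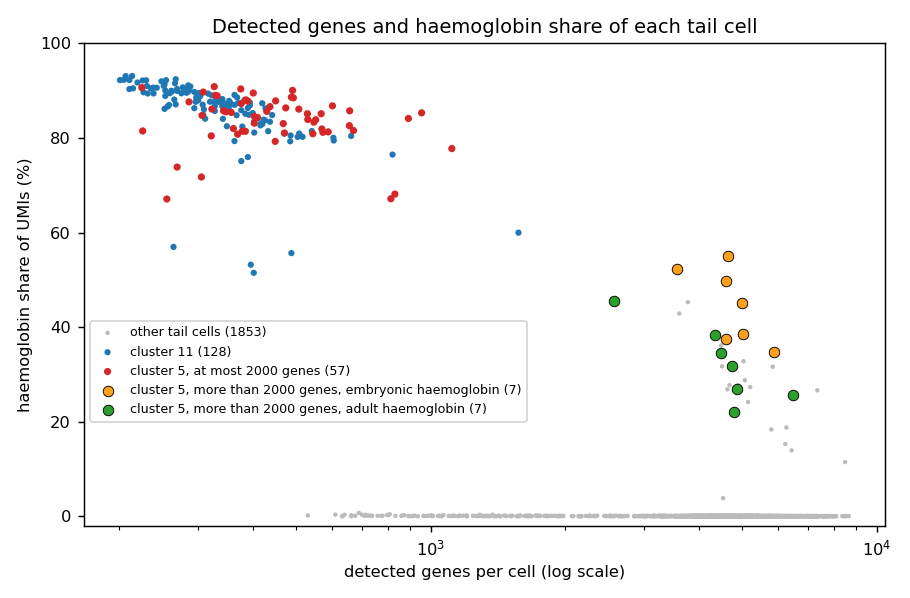
Detected genes (x axis, log scale) and haemoglobin share of UMIs in percent (y axis) of each of the 2052 tail cells. The 57 cells of cluster 5 lie among the cells of cluster 11 at the upper left. The 14 cells with 2569 to 6487 genes lie apart from these at haemoglobin shares of 22.0 to 55.0%, where some other tail cells also lie.

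The 14 cells with more than 2000 genes fell into 2 kinds of equal number. In 7 of them, embryonic genes gave 82.3 to 90.0% of haemoglobin UMIs, with *Hbb-y* at 325654 CPM and *Hbb-bs* at 8177 CPM. In the other 7 they gave 0.0180 to 0.103%, with *Hbb-y* at 106 CPM and *Hbb-bs* at 174276 CPM. These 7 cells with adult haemoglobin alone held 51.3% of the *Hbb-bs* and *Hbb-bt* UMIs of cluster 5. UMIs outside haemoglobin had a median of 13606 in the 14 cells, near the median of 13959 in the other tail cells, and 13 of the 14 had UMIs of the mesenchyme genes. By Pearson correlation of log2(CPM + 10) over genes outside haemoglobin, 6 of the 14 were closest to the tail cells of code 1, 3 to code 4, 2 to code 7 and 1 each to codes 2, 9 and 10, at r of 0.563 to 0.696. The tendon gene *Scx* stood at 1472 CPM in code 1, 1664 in code 2 and 1905 in code 4, the cartilage gene *Col2a1* at 4282 CPM in code 4, and the neural gene *Rtn1* at 2553 CPM in code 10. The profiles share a library, and r is given as a description. Scrublet, a doublet caller, called none of the 71 cells and 9 of the 2052 tail cells, and no called cell was removed. Whether a barcode of the 14 held more than 1 cell was not tested in any other way.

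Similar cells were present outside the cluster. Among the 1853 other tail cells, 20 had more than 1% haemoglobin UMIs, of which 15 held adult and 5 embryonic haemoglobin (82.5 to 87.6% embryonic), and Scrublet called none of them. Those 20 cells held 95% of the haemoglobin UMIs of the other tail cells. The remaining 1833 had haemoglobin at 235 CPM, of which 33.1% was embryonic (31.9 to 34.2), and haemoglobin took at most 0.701% of the UMIs of any of them. The 1% line was drawn after the values had been seen, and whether this haemoglobin was free RNA was not tested. Measured against those 1833 cells, *Hbb-bt* of cluster 5 was 1002-fold higher. They were chosen for low haemoglobin, so the choice itself raises this ratio.

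With the 14 cells left out, the embryonic share was larger. *Hbb-y* reached 621679 CPM in the 57 cells and *Hba-x* 77040 CPM, beside 81453 CPM of *Hba-a1*, 16108 of *Hba-a2*, 27963 of *Hbb-bs* and 20184 of *Hbb-bt*. *Hbb-y* was 3861-fold higher than in cluster 11 (3324 to 4512), and *Hbb-bs* was at 0.0580 of its level there (0.0572 to 0.0589). The adult alpha genes differed less between the clusters than the adult beta genes, with *Hba-a1* at 0.625 of its level in cluster 11 (0.619 to 0.631) and *Hba-a2* at 0.470 (0.460 to 0.480). In cluster 11 there were 3.70 UMIs of *Hbb-bs* for each of *Hba-a1*, in the 57 cells 0.343. Alpha-type genes gave 20.6% of haemoglobin UMIs in the 57 cells and 19.1% in cluster 11.

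Every one of the 57 cells was mostly embryonic, but they differed from each other in degree. The embryonic share of haemoglobin UMIs ran from 70.6 to 92.2% with a median of 82.8%, and the highest cell of cluster 11 reached 2.59%, so that these cells did not overlap. *Hbb-y* gave 72.0 to 99.4% of beta-type UMIs (median 93.1%), and *Hbb-bs* with *Hbb-bt* 0.202 to 25.1% (median 6.72%). The alpha side varied more. *Hba-x* gave 17.3 to 77.2% of alpha-type UMIs (median 42.9%), against at most 0.309% in any cell of cluster 11. Across the 57 cells the *Hba-x* share of alpha-type UMIs and the adult share of beta-type UMIs were nearly unrelated (Pearson r = 0.0861, Spearman rho = -0.062), as a description of cells of 1 library.

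*Hbb-bh1*, which encodes the early embryonic beta-type chain, was a minor transcript, with 0.109% of the haemoglobin UMIs of the 57 cells and 677 CPM in all of cluster 5. It was found in 49 of the 71 cells, with a median of 2 UMIs over all 71, and was concentrated in a few, with 20 or more UMIs in 8 cells and 234 in the highest. In cluster 11, 41 of the 128 cells had a UMI, but 1 cell held 199 of the 263. *Hbb-bh0*, annotated as a pseudogene next to the embryonic genes, had 641 UMIs in cluster 5 and 0 in cluster 11, at least 224-fold higher against a floor of 3 counts over the cluster. *Hbb-bh2* had 9 UMIs in cluster 5.

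Copies of these genes share sequence, and reads that mapped to several places were ignored by the authors. In the last 500 bases of the GENCODE M21 transcripts, 78.6% of 75-base windows of *Hba-a1* were found whole in *Hba-a2*, and 62.4% of those of *Hbb-bs* in *Hbb-bt*. The split within each of these pairs, and the levels of all 4 genes, are therefore uncertain. *Hbb-y*, *Hba-x* and *Hbb-bh1* shared no such window with any of the globin transcripts compared.

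Against the other tail cells, few genes were higher in cluster 5. Of 13196 genes that reached 100 UMIs in the groups together, 96 were at least 2-fold higher (0.727%) and 11719 lower (88.8%), with a median log2 ratio of -2.16 over all of them. With haemoglobin left out of the totals, 486 of 13188 were higher (3.69%) and 3050 lower (23.1%). Outside the haemoglobin genes, the largest ratios were those of *Hsd3b6*, a steroid dehydrogenase gene, at 627 and *Pdzk1ip1*, which encodes a membrane protein, at 198, with haemoglobin in the totals. *Hsd3b6* had 326 UMIs in cluster 5 and 15 in the other tail cells, and *Pdzk1ip1* 261 and 38. Red-cell genes followed, with *Slc4a1*, the anion exchanger of the red-cell membrane, *Alas2*, which starts haem synthesis in red cells, *Car2*, a carbonic anhydrase, and *Tal1*, a transcription factor of blood formation. Their ratios were 53.3, 49.3, 42.3 and 26.0 with haemoglobin in the totals.

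Of the genes tested, 1495 had 0 UMIs in cluster 5, which were ranked by the floor of 3 counts. Among genes with 1 UMI in cluster 5, those with the smallest ratios included *Actc1* of muscle, *Cpa3* of mast cells, *Egfl7* and *Kdr* of endothelium and *Krtdap* of epidermis. The 57 cells alone had 93 of 13186 genes at least 2-fold higher (0.705%) and 10509 lower (79.7%), and 658 (4.99%) and 4031 (30.6%) of 13178 with haemoglobin left out, while 7930 of these genes had 0 UMIs in them. Matrix and tendon genes were low there, with *Sparc* at 1 UMI against 33670, *Col3a1* at 2 against 56384 and *Scx* at 2 against 29926. The other tail cells held far more UMIs in total. Scaled to the totals with haemoglobin left out, these genes were at 0.00832, 0.00994 and 0.0187 of the other tail cells. All 9 mesenchyme genes together had 16 UMIs in the 57 cells, and 44 of those cells had none.

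Markers of other blood cells had few UMIs. In all 71 cells, the 12 leukocyte genes in the file (*Ptprc*, *Coro1a* and others) had 20 UMIs, of which *Arhgdib* gave 13, and the 18 macrophage genes had 28, of which *Lgmn* gave 17. The 6 neutrophil genes had 1 UMI, the 7 mast cell genes 4, the 10 megakaryocyte and platelet genes 4 and the 8 lymphoid genes 4. In the 57 cells these 6 lists had 8, 13, 0, 2, 2 and 0 UMIs, at a median of 1636 UMIs outside haemoglobin per cell. With haemoglobin left out, macrophage genes of the 57 cells were at 0.342 of the other tail cells (0.182 to 0.586), leukocyte genes at 0.255 (0.110 to 0.502) and megakaryocyte and platelet genes at 0.469 (0.0567 to 1.70). The last of these intervals holds 1, so that a difference was not detectable in the 57 cells at this depth with haemoglobin left out. In all 71 cells the megakaryocyte and platelet list was at 0.312 (0.0848 to 0.800). With haemoglobin in the totals, the 57 cells had it at 0.0724 (0.00876 to 0.262). Endothelial genes had 18 UMIs in the 71 cells and blood progenitor genes 30, of which 1 lay in the 57 cells.

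The comparison of the red-cell clusters with each other, with haemoglobin left out of the UMI totals, asked how they differ beyond their globins. With haemoglobin counted, 326 of 548 genes were at least 2-fold higher (59.5%) in all 71 cells than in cluster 11 and 95 lower (17.3%). With haemoglobin left out, these were 245 (45.4%) and 163 (30.2%) of 540. Genes entered at 100 UMIs over both groups together, and 274 of the 548 did so without the cells with more than 2000 genes. The rest entered only through UMIs of those cells, which favours genes high in cluster 5. Of the 274, 23.7% were higher and 44.2% lower with those cells left out. The shares for all 71 cells thus do not measure how the clusters differ. In the 57 cells, 56 of 266 genes were at least 2-fold higher (21.1%) and 124 lower (46.6%), with a median log2 ratio of -0.82. *Nfib* and *Gpc3*, genes also high in the other tail cells, were among the leading genes of all 71 cells, with 163 and 114 UMIs against 1 each, and had 1 and 2 UMIs in the 57 cells. The mesenchyme list was 5.56-fold higher than in cluster 11 in all 71 cells (4.53 to 6.90) and at 0.229 of it in the 57 (0.126 to 0.390). Tendon and cartilage lists turned in the same way, from 3.55-fold and 7.44-fold higher to 0.189 of cluster 11 each, on 2 UMIs each in the 57 cells. The values that follow are those of the 57 cells.

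**Figure D3:**
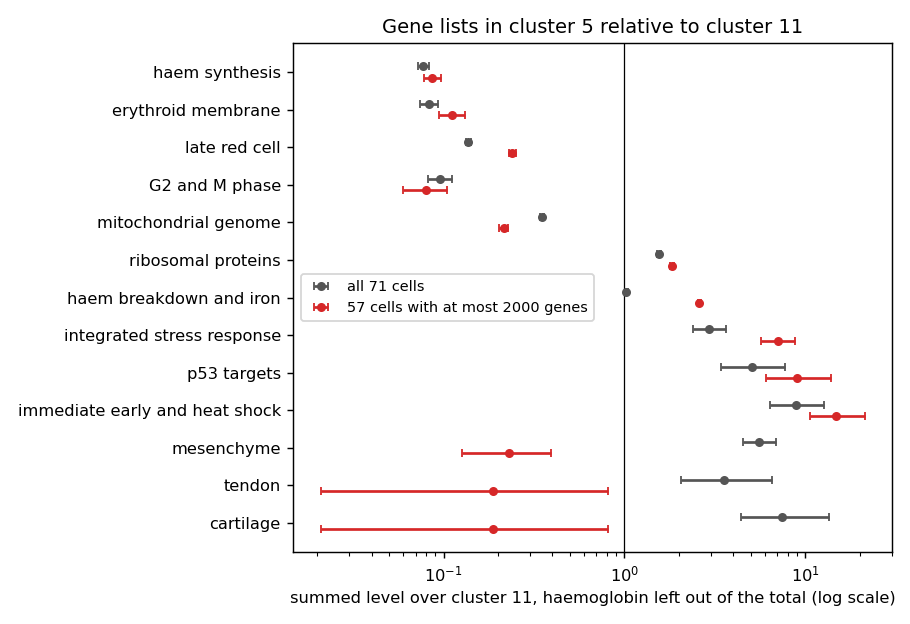
Summed level of each gene list in cluster 5 relative to cluster 11 (x axis, log scale, haemoglobin left out of the UMI totals) for all 71 cells in grey and the 57 cells with at most 2000 genes in red, with 95% counting intervals. Haem synthesis, membrane and late red-cell lists lie below 1 and the integrated stress response, p53 and immediate early lists above 1 in both, and mesenchyme, tendon and cartilage lists lie on opposite sides of 1.

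Genes of red-cell construction were lower in the 57 cells than in cluster 11. All 6 haem synthesis genes tested were at least 2-fold lower, beside 46.6% of all genes, with a median log2 ratio of -3.53, and the list stood at 0.0869 of its level in cluster 11 (0.0781 to 0.0964). *Alas2* was at 2203 CPM against 21718, at 0.101 of it (0.0883 to 0.116). *Slc25a37*, the mitochondrial iron importer mitoferrin 1, had 12 UMIs against 1315, and *Fech*, which inserts the iron, 42 against 827. All 3 membrane genes tested were lower, with the list at 0.112 (0.0945 to 0.132). *Slc4a1* had 38 UMIs against 263.

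Of 12 genes of late red cells tested, 11 were at least 2-fold lower and 0 higher, beside 46.6% and 21.1% of all 266 genes, with a median log2 ratio of -2.39. *Mkrn1*, a ubiquitin ligase gene, stood at 0.0398 of cluster 11 (0.0314 to 0.0499). *Bpgm*, which makes the 2,3-bisphosphoglycerate that lowers oxygen affinity, was at 2818 CPM against 16139. *Prdx2*, a peroxide-removing enzyme of red cells, was at 0.461 (0.432 to 0.492), and *Blvrb*, a biliverdin reductase, was the 1 gene of the list tested that stayed within 2-fold, at 0.680 (0.621 to 0.744). Relative to the other tail cells this list was still 18.2-fold higher (17.6 to 18.9), with 11 of 11 genes tested at least 2-fold higher beside 4.99% of 13178.

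The list of 8 erythroid transcription factors was at 0.744 of cluster 11 (0.562 to 0.978), and 1 of them, *Lmo2*, had enough UMIs for a call. *Tal1*, with 72 UMIs against 9, was at 693 CPM in the 57 cells and 61.2 CPM in cluster 11, 11.3-fold higher (5.645 to 25.8), and *Lmo2*, its partner protein gene, had 1 UMI against 99. *Gata1* and *Klf1*, central activators of red-cell genes, were found in 0 of 54 cells thinned to 3000 UMIs, which allows up to 6.60% of cells with a UMI at this depth (Clopper-Pearson), and in 4% and 3.20% of 125 cells of cluster 11. Without thinning, *Klf1* was found in 1 and *Gata1* in 0 of the 57 cells. A difference between the clusters was not detectable at this depth.

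**Figure D4:**
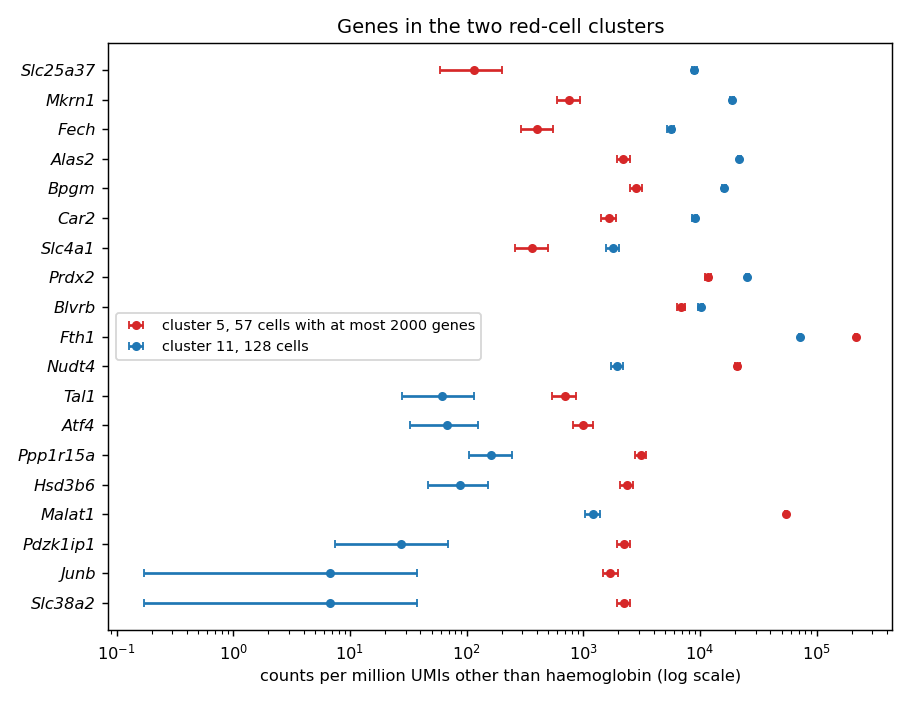
Level of named genes (x axis, CPM of UMIs other than haemoglobin, log scale, with 95% counting intervals) in the 57 cells of cluster 5 with at most 2000 genes (red) and in the 128 cells of cluster 11 (blue). Red-cell genes from *Slc25a37* to *Blvrb* were lower in cluster 5, and *Fth1* and the genes under it higher.

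Ferritin was the leading transcript of cluster 5 outside haemoglobin. *Fth1*, which encodes the heavy chain of the iron-storing protein ferritin, was at 217779 CPM in the 57 cells, 72167 in cluster 11 and 1672 in the other tail cells, thus 3.02-fold higher than in cluster 11 (2.95 to 3.09). Per cell it took 1.37 to 37.0% of UMIs outside haemoglobin (median 22.7%), against 0.180 to 16.2% in cluster 11 (median 7.69%). *Ftl1*, the light chain, was at 56260 CPM against 31415. The ratio depended on the 14 cells, since *Fth1* of all 71 cells was 1.17-fold higher than in cluster 11 with haemoglobin left out (1.14 to 1.195).

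*Hmox1*, which encodes the haem-degrading enzyme haem oxygenase 1, was found in cluster 5 but not in cluster 11. It had 321 UMIs in 44 of the 71 cells, of which 290 in 37 of the 57. Over all 57, cells without a UMI included, the median was 1 UMI and the highest 45. In cluster 11 it had 0 UMIs in 128 cells, at a median depth of 8392 UMIs, so that the 57 cells were at least 137-fold higher against a floor of 3 counts over the cluster. After thinning to 3000 UMIs, 50% of 54 cells had a *Hmox1* UMI (36.1 to 63.9), 0 of 125 cells of cluster 11 (up to 2.91%) and 4.04% of 1759 other tail cells (3.17 to 5.06). The haem breakdown and iron list, to which *Hmox1* belongs, was 2.59-fold higher than in cluster 11 (2.54 to 2.64). In all 71 cells it was at 1.025 (1.006 to 1.044). Of its 5 genes tested in the 57 cells, 2 were at least 2-fold higher and 2 lower, beside 21.1% and 46.6% of all 266. Members that went the other way were the haem transporter gene *Slc48a1* at 0.376 of cluster 11 and *Ncoa4*, which targets ferritin for breakdown, at 0.155.

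Of the stress lists, 3 were higher in the 57 cells than in cluster 11 and 2 were not. The oxidative stress and metallothionein list was at 0.769 of cluster 11 (0.682 to 0.865) and the hypoxia response list at 0.813 (0.505 to 1.29), on 31 UMIs against 54, whereas the latter was 3.104-fold higher in all 71 cells (2.33 to 4.21). The integrated stress response list was 7.05-fold higher (5.695 to 8.80), on 513 UMIs against 103, and rested on the 2 of its 14 genes that could be tested, both at least 2-fold higher beside 21.1% of all genes. *Ppp1r15a*, which encodes the GADD34 subunit that restores translation, had 323 UMIs against 24, and *Atf4*, the central transcription factor of this response, 103 against 10. *Asns*, a target of *Atf4*, had 5 UMIs against 54. The immediate early and heat shock list was 14.8-fold higher (10.6 to 21.4), on 388 UMIs against 37, with 1 of its 10 genes, *Junb*, tested. *Junb* had 177 UMIs against 1, a ratio of 250.5 with an interval of 44.4 to 9951, and *Hspa1a*, a heat shock protein gene, 66 against 0. The p53 target list was 9.0-fold higher (6.02 to 13.9), with 0 of its genes at the 100 UMIs needed for a call, mostly through *Bax* with 89 UMIs against 9 and *Btg2* with 47 against 14. In all 71 cells the integrated stress response list was 2.94-fold higher than in cluster 11 (2.39 to 3.66). The immediate early and heat shock list was 8.83-fold higher there and the p53 target list 5.06-fold. *Slc38a2*, an amino acid transporter gene, had 231 UMIs in the 57 cells against 1. Dissociation and the Annexin V step were shared by all cells of the library, and their part in these values was not tested.

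Against the other tail cells the stress lists differed in direction. In the 57 cells, with haemoglobin left out, the oxidative stress and metallothionein list was 12.6-fold higher (11.4 to 13.9; 7 of 8 genes at least 2-fold higher), the p53 target list 2.85-fold higher (2.44 to 3.30) and the hypoxia response list at 0.259 (0.176 to 0.368). In all 71 cells these 3 lists were at 5.795, 1.60 and 0.989 of the other tail cells. With haemoglobin in the totals, the 57 cells had them at 1.95, 0.440 (0.377 to 0.510) and 0.04. The direction of the p53 target list thus depended on whether haemoglobin was counted. In the 57 cells the integrated stress response list was 9.40-fold higher (8.59 to 10.3) with haemoglobin left out. Of its 12 genes tested, 4 were at least 2-fold higher and 1 lower. The list was 3.93-fold higher in all 71 cells, and 1.45-fold higher in the 57 cells with haemoglobin in the totals. The immediate early and heat shock list was 1.27-fold higher in the 57 cells with haemoglobin left out (1.15 to 1.41). It was at 0.757 in all 71 cells, and at 0.197 in the 57 cells with haemoglobin in the totals. Of its 10 genes, 4 were at least 2-fold higher and 4 lower with haemoglobin left out, beside 4.99% and 30.6% of all 13178 genes. *Junb* was 11.3-fold higher and *Fos* at 0.412.

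The nuclear transcript *Malat1* and transcripts of the mitochondrial genome also set the red-cell clusters apart. *Malat1*, a long noncoding RNA that stays in the nucleus, was at 54375 CPM in the 57 cells and 1210 in cluster 11 with haemoglobin left out, 44.95-fold higher (38.7 to 52.5). Per cell it took 0 to 16.4% of UMIs outside haemoglobin in the 57 cells (median 5.37%), 0 to 1.54% in cluster 11 (median 0.0229%) and 0 to 9.38% in the other tail cells (median 1.46%). After thinning to 3000 UMIs, 96.3% of the 57 cells deep enough had a UMI, 22.4% of those of cluster 11 and 98.4% of the other tail cells. *Neat1*, another nuclear noncoding RNA, had 105 UMIs in the 57 cells and 0 in cluster 11. It is named here after its values were seen.

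Mitochondrial transcripts were low in both red-cell clusters as a share of all UMIs, but lower in cluster 5. They took 0.0461 to 2.77% of all UMIs in the 57 cells (median 0.159%) and 0.112 to 5.50% in cluster 11 (median 0.879%). Outside haemoglobin the medians were 1.04% and 7.19%, against 3.12% in the other tail cells, and the list was at 0.2145 of its level in cluster 11 (0.204 to 0.226), with 6 of 7 genes tested at least 2-fold lower beside 46.6% of all 266. The 14 cells with more than 2000 genes lay at 1.66 to 3.91%, around the median of the other tail cells. Ribosomal protein genes were 1.83-fold higher than in cluster 11 (1.77 to 1.88).

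**Figure D5:**
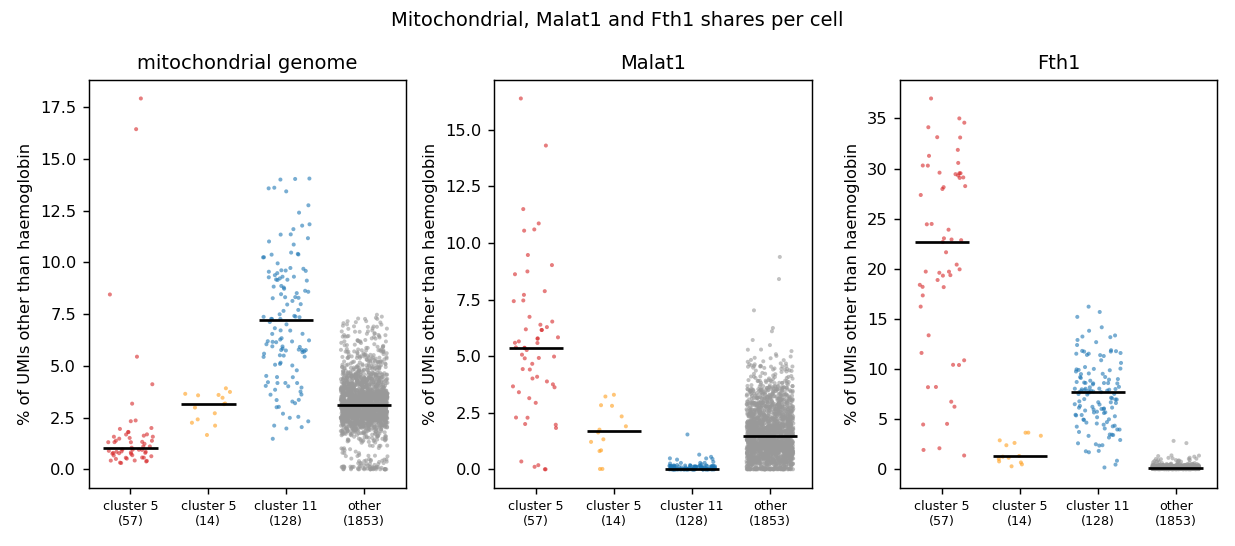
Share of UMIs other than haemoglobin (y axes, percent) from the mitochondrial genome, *Malat1* and *Fth1* in each cell, with the median as a line, for the 57 and the 14 cells of cluster 5, cluster 11 and the other tail cells. The medians of the 57 cells were 1.04, 5.37 and 22.7%, against 7.19, 0.0229 and 7.69% in cluster 11.

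Genes of G2 and M phase were at 0.0797 of cluster 11 (0.060 to 0.104), which rested on *Ube2c*, a ubiquitin-conjugating enzyme gene of mitosis with 13 UMIs against 902. *Mki67*, a proliferation marker, had 20 against 66, and *Cenpf* and *Birc5* 7 and 11 against 9 and 18. Genes of S phase had 16 UMIs against 22, a ratio of 1.03 (0.505 to 2.05).

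In the tail library taken alone, the 57 cells were nearest to each other. Of their 20 nearest neighbours each, taken over 30 principal components of 2000 variable genes, 100% were in cluster 5 and 0% in cluster 11, and 99.6% and 0.0877% with haemoglobin genes left out. The 14 cells had 30.4% of their neighbours in cluster 5, 20.7% in cluster 11 and 48.9% among the other tail cells. The 7 with adult haemoglobin had 41.4% in cluster 11, and the 7 with embryonic haemoglobin had 0% there. With haemoglobin genes left out, the 14 cells had 22.5% in cluster 5, 7.50% in cluster 11 and 70% among the other tail cells, and the 7 with adult haemoglobin had 15% in cluster 11.

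In the D10 culture, 435 of 7821 cells carried the same code, and they were unlike those of the tail. Only 34 of them had more than 1% haemoglobin UMIs (1.92 to 66.8%, median 17.8%), and haemoglobin made up 2.76% of the UMIs of the 435. What haemoglobin they had was 93.8% embryonic. *Hba-x* gave 89.7% of alpha-type UMIs there and 44.0% in the tail, and *Hbb-bh1* 5.44% of haemoglobin UMIs there against 0.0979% in the tail. *Pou5f1* and *Dppa5a*, genes of pluripotent cells, were at 346 and 2155 CPM in the culture, and had 1 and 0 UMIs in cluster 5 of the tail. Of the barcodes of cluster 5 in the tail, 0 were shared with the culture, and 4 were shared by the libraries as a whole.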

How the data were processed

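The cluster members and gene lists were chosen with earlier results of these data known. The authors deposited raw counts (UMIs of each gene in each cell, whole numbers) from cellranger, which left multi-mapping reads out, after removing cells above 7.5% mitochondrial transcripts and the lowest and highest 2% quantiles, and gave each cell a cluster code. Per the labels, Cell Ranger and Seurat 3.0 were used, and the reference of the counts is not given in the sources used here. Per the study's methods, tail and culture were integrated and clustered after batch correction. UMIs were summed over cells with Python 3.11.15, NumPy 2.4.6, SciPy 1.17.1 and pandas 2.3.3. Haemoglobin left out means 11 *Hba* and *Hbb* genes and pseudogenes taken out of the UMI total, and out of the genes compared except where a haemoglobin gene's own ratio is given. Genes were compared when both groups together had 100 UMIs. A floor of 3 counts over the group replaced 0, and a gene at 0 was never called higher. Named genes are those of the 32 lists, and the 15 with the largest ratios in each direction at 50 CPM or more in the higher group, others being named after their values were seen. Not all are reported here. The rule was run on simulated group totals drawn from a profile shared by both groups, with some genes changed by a set factor. The simulation had no spread between cells and no haemoglobin shift, so it does not show how the rule behaves on these groups. Neighbours and doublets (Scrublet, expected rate 6%, seed 1, no cell removed) used Scanpy 1.11.5, and figures Matplotlib 3.10.9. Intervals cover counting error only, and precision is set by the 2279 to 33656 UMIs of each cell of cluster 5. The D6 PM library was not used here. Alternatives are given in the closing section.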

Additional observations from a re-analysis of the deposited data

How the results depend on the processing

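No paired analysis was possible because the tail is 1 library and no test between groups was made. Alternatives with the 14 gene-rich cells or with haemoglobin-bearing other tail cells left out were chosen after seeing the data. *Hbb-bt* of cluster 5 was 39.3-fold above the other tail cells and at 0.129 of cluster 11. These became 126.8 and 0.0581 with haemoglobin left out of the totals, 48.9 and 0.116 with equal weight for each cell, 59.3 and 0.310 without cells under 1000 genes, 37.2 and 0.122 without the 5 deepest cells, and 28.6 and 0.0941 without the 14 cells. The first became 3.38 with cluster 11 among the other cells and 1002 without other tail cells over 1% haemoglobin, a choice that itself raises the ratio. The haemoglobin share of 69.2% became 74.7, 40.8, 73.6 and 84.6%, and the embryonic share of 77.8% became 79.6, 59.7, 79.2 and 82.8%, with equal weights, without cells under 1000 genes, without the 5 deepest and without the 14.

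Against the other tail cells, 96 of 13196 genes were at least 2-fold higher (0.727%) and 11719 lower (88.8%). These became 486 and 3050 with haemoglobin left out, 62 and 4062 at 50 CPM or more, and 979 and 1413 relative to the median gene, with 204 higher at 20 UMIs or more and 6579 lower when the interval had to lie beyond 2-fold. Against cluster 11, 326 higher and 95 lower became 204 and 211 relative to the median gene and 2450 and 163 at 20 UMIs or more. The lower count was 163 of 540 (30.2%) with haemoglobin left out. The higher count was 187 without the 5 deepest cells, 65 of 274 (23.7%) without the 14 and 56 of 266 (21.1%) with haemoglobin left out as well. The number of genes compared changed with these settings, so a change in a count alone is not a change in the share. Against cluster 11, some genes reached 100 UMIs only through cells with more than 2000 genes, so the shares depend on them too. Of the gene lists, 23 were lower than in the other tail cells and 19 higher than in cluster 11, which became 15 and 12 with haemoglobin left out, the second 7 without the 14 cells. All genes moved in the same directions. With haemoglobin in the totals, 88.8% were at least 2-fold lower than in the other tail cells and 59.5% higher than in cluster 11. Without it these shares were 23.1 and 45.4%. The list counts are thus not a result about the lists.

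With haemoglobin left out, list ratios against the other tail cells that crossed 1 were lymphoid (0.389 to 1.26), p53 targets (0.496 to 1.60), erythroid transcription factors (0.751 to 2.43) and ribosomal proteins (0.356 to 1.15), and against cluster 11 muscle (1.12 to 0.5045). Without the 14 cells, those that crossed 1 with haemoglobin in the totals were blood progenitor (0.524), mesenchyme (0.254), tendon (0.209), cartilage (0.209), nerve and neural crest (0.571) and hypoxia response (0.902) against cluster 11. With haemoglobin already left out, leaving out the 14 cells moved immediate early and heat shock genes from 0.757 to 1.27 of the other tail cells. Cells of cluster 5 with a *Hmox1* UMI went from 42.7% to 23.9% when thinned to 1000 UMIs and 62.0% unthinned, and with a *Neat1* UMI from 33.8% to 14.1 and 59.2%. Neighbours in cluster 5 went from 86.3% to 88.0% with 10 neighbours, 84.4% with haemoglobin left out and 100% for the 57 cells, and those in cluster 11 from 4.09% to 1.55% with haemoglobin left out and 0% for the 57 cells. The cause of these changes was not tested.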
